A study of Mus musculus with 9 samples.

Results

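The genes examined here encode calprotectin and the proteins through which it is known to signal. They were S100a8 and S100a9, the subunits of calprotectin, its receptors Tlr4, Ager (RAGE) and Bsg (basigin), the Tlr4 accessory proteins Cd14 and Ly96 (MD-2), and the adaptor Myd88. They were picked out by a list of gene symbols, which was drawn up with earlier results of these data known, and all 8 were found among the 21498 symbols of the deposited files. Each was listed under 1 row, and each had at least 0.1 FPKM (fragments scaled by transcript length and by library size) in every sample.

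RNA-seq was performed on colon tissue of 9 male mice of the outbred ICR strain, with 3 mice per group labelled as biological replicates. All mice were 5 weeks old at the start and were killed at the end of week 18. Control mice received neither AOM/DSS nor antibody. The mice of both other groups were injected intraperitoneally with 10 mg/kg azoxymethane (AOM), a colon carcinogen, and a week later began 3 cycles of dextran sulfate sodium (DSS), which injures the colon epithelium. DSS was given in drinking water at 2% for 7 days in the first cycle and at 1.5% for 5 days in each later cycle. During these cycles, antibody was given intravenously every 2 days at 1.5 mg/kg, as negative control IgG in the IgG Ab group or as a neutralizing antibody against S100a9 in the anti-S100a9 Ab group. The antibody binds the S100a9 protein, whereas the values here are RNA levels, so they do not measure its neutralization. The labels call the Control samples normal colorectal mucosa and both AOM/DSS groups colorectal adenocarcinoma. The study's text, however, describes the anti-S100a9 Ab tissue as colon mucosa. Labelled tissue and treatment differ together in comparisons with Control mice and cannot be told apart. The share of tumor in each sample was not given in the sources used here.

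S100A8 and S100A9 are small calcium-binding proteins that pair into calprotectin, which makes up a large part of the cytosolic protein of neutrophils and is also made by monocytes and by stressed epithelium. Released into tissue, the pair acts as a danger signal. It binds the complex of TLR4 with MD-2, to which CD14 delivers ligands and from which MYD88 carries the signal toward NF-kB, and it also binds RAGE. Basigin has been reported as a further receptor. In the colon, calprotectin is best known as a fecal marker of neutrophilic inflammation.

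The 9 files summed to between 308377 and 408811 FPKM, with 16052 to 16511 symbols above 0. Low FPKM values put the depth at roughly 23300000 to 30300000 fragments per sample. Only estimates within a preset window were kept, so these depths were bounded in advance and are rough. All 8 colon epithelium markers examined, among them Epcam and Krt8, were above 0 in every sample. Gapdh and Rps18, which nearly all cells use, reached at most 0.755 and 0.391 FPKM, and a gene at 0 is therefore described only as listed at 0.

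On build GRCm38, S100a8 lies on the plus strand at chr3:90668978-90670035 and S100a9 on the minus strand at chr3:90692632-90695721, with 22596 bases between them. Because both genes moved together, the DNA ahead of their start sites is shown, taken from RefSeq (GRCm38.p6) and read 5′ to 3′ on each gene's own strand. RefSeq promoter windows were matched for 4 of the 8 genes, and 5 short motifs were searched on both strands in the 250 bases ahead of each start. The S100a8 sequence stops at the earliest start annotated by GENCODE, which leaves 157 of the 250 bases. Capitals mark the motif matches described below.
S100a8, chr3:90668821-90668977, plus strand: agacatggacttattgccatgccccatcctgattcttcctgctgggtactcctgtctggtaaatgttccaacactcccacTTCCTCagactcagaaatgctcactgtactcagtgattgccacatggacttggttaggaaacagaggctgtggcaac
S100a9, chr3:90695722-90695971, minus strand: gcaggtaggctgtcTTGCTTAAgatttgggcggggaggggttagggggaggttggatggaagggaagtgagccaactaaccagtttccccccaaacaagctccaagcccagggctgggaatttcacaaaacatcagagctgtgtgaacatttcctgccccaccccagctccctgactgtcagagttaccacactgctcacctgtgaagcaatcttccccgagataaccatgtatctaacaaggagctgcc

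The capitals in S100a9 match TTGCNNAA, letters bound by C/EBP factors, from base -236 to -229 counted from the RefSeq start, and such letters stood in 9.56% of all 32851 RefSeq windows of this length. The capitals in S100a8 match the reverse of GAGGAA, letters bound by PU.1, from -170 to -165, and the same letters recurred from -36 to -31, in the bases not printed. That motif stood in 23.3% of all windows. No match to TGANTCA (AP-1, in 6.75% of windows), TTCNNNGAA (STAT, 7.02%) or GGGNNNNNCC (NF-kB, 45.8%) was found in these 250 bases of S100a8 or S100a9. The windows of both genes thus shared no matched motif among those searched.

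The calprotectin subunits were barely expressed in Control colons, rose in AOM/DSS mice given IgG Ab, by 229.6-fold (S100a8) and 279-fold (S100a9) in mean FPKM, and were 18.7-fold (S100a8) and 18.3-fold (S100a9) lower in mean FPKM in AOM/DSS mice given anti-S100a9 Ab. S100a9, the subunit that the antibody targets as protein, was at 0.370, 0.859 and 0.575 FPKM in Control replicates 1 to 3. It stood at 63.1, 173 and 267 FPKM in IgG Ab replicates 1 to 3, and at 10.3, 11.6 and 5.54 FPKM in anti-S100a9 Ab replicates 1 to 3. The 3 groups did not overlap, with every anti-S100a9 Ab sample between the highest Control and the lowest IgG Ab sample. The group means were 0.602 ± 0.245, 168 ± 102 and 9.16 ± 3.20 FPKM (SD, n = 3 each).

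S100a8, the partner subunit, showed the same order, at 0.261, 0.951 and 0.608 FPKM in Control replicates 1 to 3. Its values were 35.7, 141 and 242 FPKM in the IgG Ab samples and 5.33, 13.3 and 3.69 FPKM in the anti-S100a9 Ab samples. Here too the groups were apart, and IgG Ab replicate 1 was the lowest of its group for both genes. Mean S100a8 was 0.607 ± 0.345 FPKM in Control, 139 ± 103 FPKM in IgG Ab and 7.45 ± 5.15 FPKM in anti-S100a9 Ab mice (SD, n = 3 each).

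**Figure D1:**
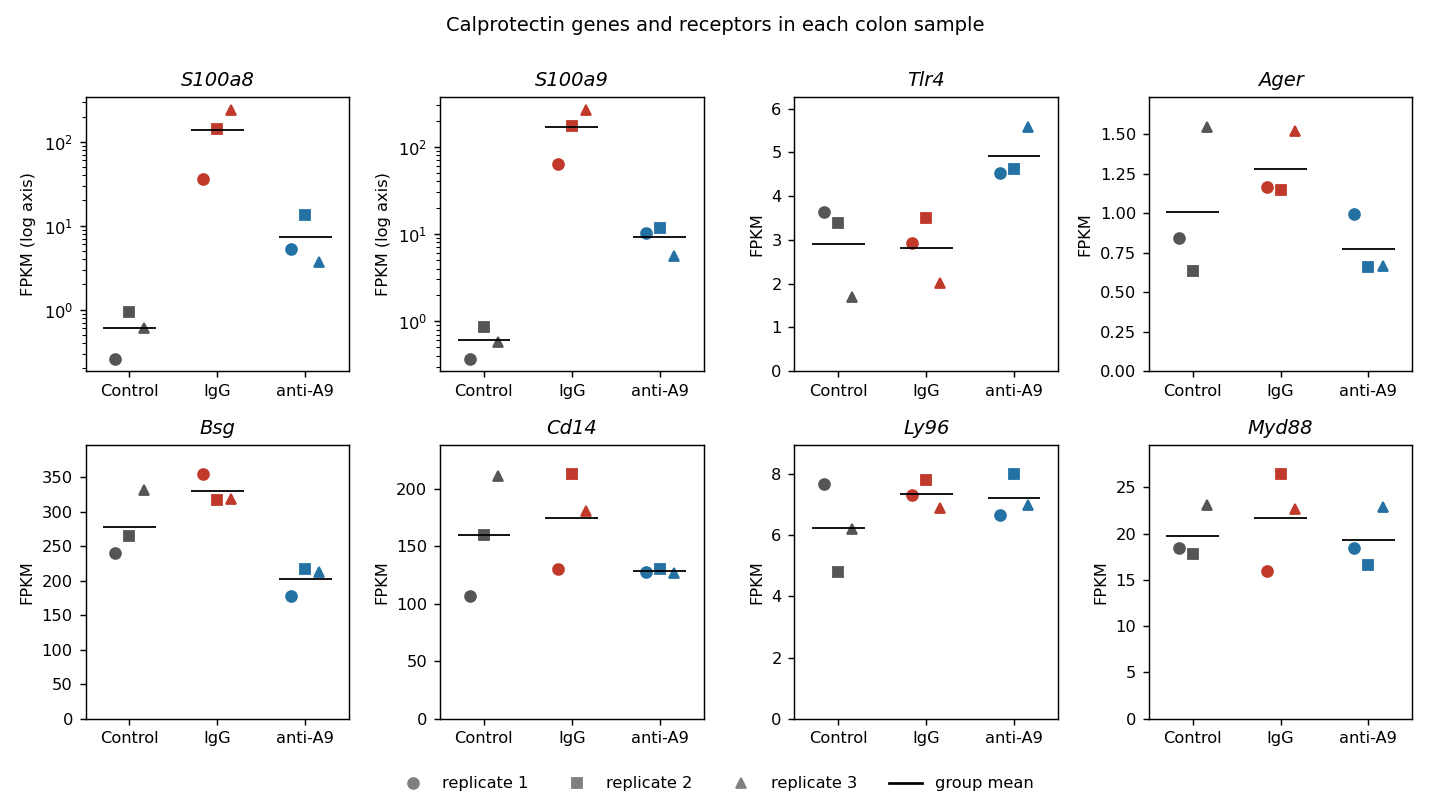
FPKM of the 8 genes in each of the 9 colon samples (points, with the replicate number as symbol) and the group mean (line). The y axis is logarithmic for S100a8 and S100a9 and linear from 0 for the other genes. S100a8 and S100a9 separate all 3 groups, Bsg is lowest and Tlr4 highest in the anti-S100a9 Ab (anti-A9) samples, and the groups overlap for Cd14, Ly96 and Myd88.

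Differences between groups were tested with limma on log2(FPKM + 0.1), and p-values were adjusted over all 15278 genes tested. On this scale, S100a9 was higher in IgG Ab than in Control mice by 7.73 (SE 0.52, adjusted p = 0.00025) and S100a8 by 7.37 (SE 0.74, adjusted p = 0.0011). Compared with IgG Ab mice, S100a9 fell by 4.02 (SE 0.52, adjusted p = 0.0044) and S100a8 fell by 4.03 (SE 0.74, adjusted p = 0.012) in anti-S100a9 Ab mice. These 4 calls held in all 18 alternative analyses. Single libraries set their size in part. Without IgG Ab replicate 1, the lowest of its group, the log2 rise was 8.32 for S100a9 and 8.16 for S100a8, and the log2 difference between the AOM/DSS groups was -4.61 and -4.82. Without IgG Ab replicate 3, the highest, the rise was 7.28 and 6.78 and the difference between the AOM/DSS groups -3.57 and -3.45. For S100a8, the ratio of mean FPKM between IgG Ab and anti-S100a9 Ab mice was 11.8 without IgG Ab replicate 3 and 30.9 without anti-S100a9 Ab replicate 2, and that between IgG Ab and Control mice was 145 without IgG Ab replicate 3. Both comparisons share the IgG Ab samples, so their opposite directions are not separate evidence.

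The anti-S100a9 Ab mice still had more of both transcripts than Control mice in every sample. Mean FPKM was 15.2-fold the Control mean for S100a9 and 12.3-fold for S100a8, and 5.12% (S100a9) and 4.93% (S100a8) of the excess of the IgG Ab mean over the Control mean was left. For S100a8, the ratio to Control was 7.43 without anti-S100a9 Ab replicate 2, and the excess left was 2.81% without that sample and 7.82% without IgG Ab replicate 3. The log2 difference from Control was 3.71 for S100a9 (95% interval 2.53 to 4.90, unadjusted p = 6.0e-05) and 3.33 for S100a8 (95% interval 1.67 to 5.00, unadjusted p = 0.0015). With limma's adjustment over all genes, neither passed (adjusted p = 0.13 and 0.30). Only 0.0131% of all genes passed in this comparison. S100a9 passed at an adjusted p of 0.048 when IgG Ab replicate 1 was left out of the shared estimate of the spread.

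By rank of FPKM, S100a9 was the 178th to 869th most abundant of the symbols above 0 in the IgG Ab samples, and stood between ranks 12320 and 13440 in Control and between 4709 and 7984 in anti-S100a9 Ab samples. With the length of the principal GENCODE transcript, the estimated depths put the Control values of S100a9 at about 5.0 to 10.2 fragments. Those of S100a8 came to about 3.4 to 10.8 fragments. These counts are as rough as the depths, which the preset window bounded. The fold changes over Control rest on these few fragments. In bulk tissue, fewer cells that express a gene and less RNA of it per cell cannot be told apart.

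The subunits kept close to a fixed proportion while their sum ranged from 0.632 to 509 FPKM over the 9 samples. FPKM is scaled by transcript length, so the genes are set against each other here, but only roughly. The unit was inferred, and Gapdh and Rps18 were listed very low although nearly all cells use them. The ratio of S100a9 to S100a8 was 1.42, 0.904 and 0.945 in Control, 1.77, 1.23 and 1.10 in IgG Ab, and 1.93, 0.873 and 1.50 in anti-S100a9 Ab replicates 1 to 3. These ranges overlapped in all pairs of groups. The log2 ratio differed by 0.33 between IgG Ab and Control, by 0.02 between anti-S100a9 Ab and IgG Ab and by 0.35 between anti-S100a9 Ab and Control mice (two-sided exact permutation tests, p = 0.3, 1 and 0.5, adjusted over the 3 pairs 0.75, 1 and 0.75). With 3 against 3 samples, an exact permutation test cannot go below p = 0.1, so a difference in the ratio could not have passed.

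**Figure D2:**
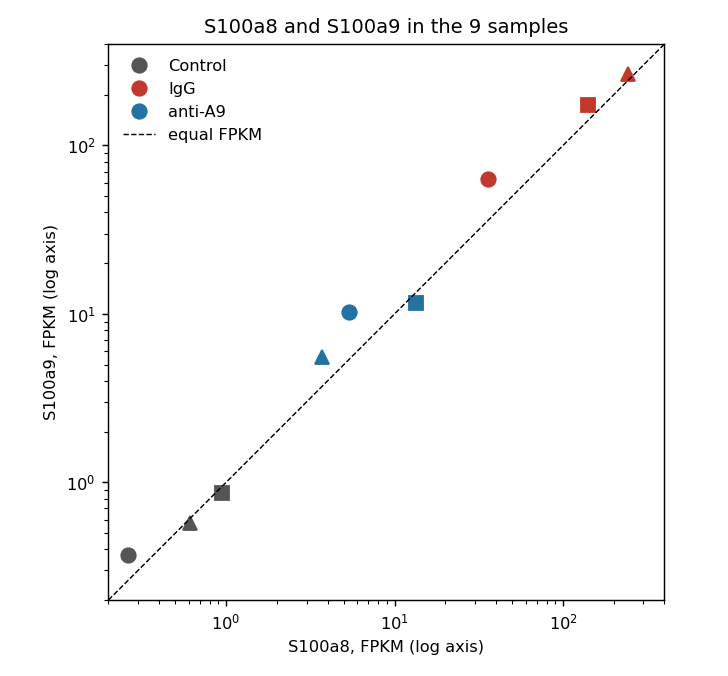
S100a8 against S100a9 in each of the 9 samples, both in FPKM on logarithmic axes, colored by group with the replicate number as symbol, and a dashed line at equal FPKM. The points lie along the line from the Control samples, all under 1 FPKM, through the anti-S100a9 Ab samples (anti-A9) to the IgG Ab samples, with S100a9 over S100a8 between 0.873 and 1.93.

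Among the receptors, Bsg was lower in anti-S100a9 Ab than in IgG Ab mice, whereas Tlr4 and Ager did not pass the test in any comparison. Tlr4 (chr4:66827584-66930284, plus strand), the pattern recognition receptor of lipopolysaccharide and of calprotectin, was at 3.65, 3.38 and 1.69 FPKM in Control, 2.93, 3.50 and 2.01 FPKM in IgG Ab, and 4.53, 4.61 and 5.59 FPKM in anti-S100a9 Ab samples. Every anti-S100a9 Ab sample was above every sample of both other groups, which overlapped each other. The log2 difference was 0.81 from IgG Ab (95% interval 0.09 to 1.54, adjusted p = 0.098) and 0.80 from Control mice (95% interval 0.08 to 1.53, adjusted p = 0.30). Control replicate 3 had the lowest Tlr4 value. When it was left out of the shared estimate of the spread, the difference from IgG Ab stayed at 0.81 and passed (adjusted p = 0.036). Between IgG Ab and Control mice, Tlr4 differed by -0.01 (95% interval -0.73 to 0.72), while its ligand genes S100a8 and S100a9 differed by 7.37 and 7.73.

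Ager (chr17:34597862-34600936, plus strand) encodes RAGE, a receptor of the immunoglobulin family for several S100 proteins and HMGB1. It was the least abundant receptor gene, at 0.842, 0.634 and 1.55 FPKM in Control, 1.16, 1.15 and 1.52 FPKM in IgG Ab, and 0.996, 0.659 and 0.666 FPKM in anti-S100a9 Ab samples. The anti-S100a9 Ab samples were all under the IgG Ab samples, and the Control samples spanned both. The log2 difference between the AOM/DSS groups was -0.67 (95% interval -1.43 to 0.09, adjusted p = 0.17), and IgG Ab differed from Control mice by 0.39 (95% interval -0.37 to 1.15, adjusted p = 0.47).

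Bsg (chr10:79704491-79711969, plus strand) encodes basigin, a membrane glycoprotein that also escorts lactate transporters to the cell surface. Its FPKM was 239.8, 265 and 331 in Control, 355, 317 and 319 in IgG Ab, and 178, 218 and 213 in anti-S100a9 Ab samples. All anti-S100a9 Ab samples were below all others, and the IgG Ab samples overlapped with Control replicate 3. Bsg fell by 0.71 on the log2 scale from IgG Ab to anti-S100a9 Ab mice (SE 0.18, adjusted p = 0.026), and its difference from Control was -0.45 (95% interval -0.85 to -0.05, adjusted p = 0.30). The call held in 11 of 18 alternatives. It was lost with quantile normalization (-0.56, adjusted p = 0.074) and median-of-ratios scaling (-0.58, adjusted p = 0.053). It was also lost without IgG Ab replicate 1 (-0.66, adjusted p = 0.059), IgG Ab replicate 3 (-0.73, 0.059) or anti-S100a9 Ab replicate 1 (-0.62, 0.1), 2 (-0.76, 0.074) or 3 (-0.75, 0.066).

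The accessory proteins and the adaptor of Tlr4 did not pass the test in any comparison. Cd14, the co-receptor that hands lipopolysaccharide to the Tlr4 complex, was at 107, 160.0 and 212 FPKM in Control, 130.1, 213 and 181 FPKM in IgG Ab, and 128, 130.3 and 127 FPKM in anti-S100a9 Ab samples. The anti-S100a9 Ab samples were close together and lay within the Control range. The log2 difference was -0.42 from IgG Ab (95% interval -1.01 to 0.18, adjusted p = 0.27) and 0.16 between IgG Ab and Control mice (95% interval -0.44 to 0.75, adjusted p = 0.73).

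Ly96 (chr1:16688051-16709611, plus strand) encodes MD-2, the part of the complex that holds the ligand. It ranged from 4.80 to 8.01 FPKM over all samples, with means of 6.24 ± 1.45, 7.34 ± 0.462 and 7.22 ± 0.709 FPKM in Control, IgG Ab and anti-S100a9 Ab mice (SD, n = 3 each). Myd88 (chr9:119335934-119341411, minus strand), the adaptor shared by most Toll-like receptors, had means of 19.8 ± 2.87, 21.7 ± 5.30 and 19.3 ± 3.18 FPKM in the same order. The groups overlapped for both genes. The intervals of the log2 difference between IgG Ab and Control mice ran from -0.18 to 0.69 for Ly96 and from -0.37 to 0.59 for Myd88, against 7.37 and 7.73 for S100a8 and S100a9.

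**Figure D3:**
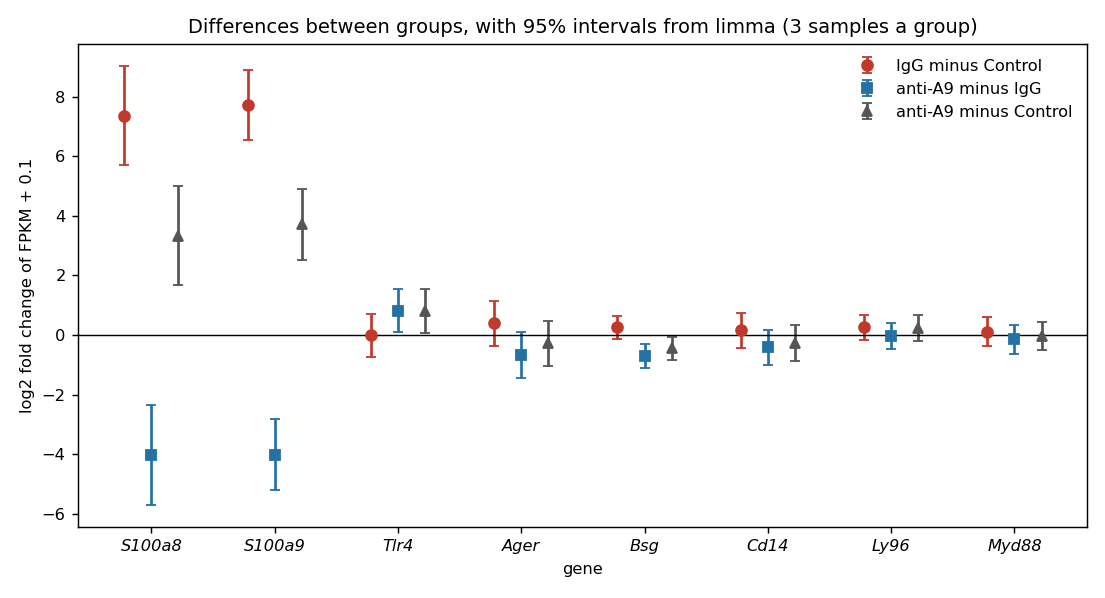
Log2 fold change of FPKM + 0.1 between groups for the 8 genes, with 95% intervals from limma (3 samples per group) as bars and a line at 0. S100a8 and S100a9 lie at 7.37 and 7.73 for IgG Ab minus Control and near -4 for anti-S100a9 Ab minus IgG Ab (anti-A9), while the estimates of the other genes stay between -0.71 and 0.81.

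Counted together, 2 of the 8 genes, both subunits, passed in IgG Ab against Control mice, and both were higher, where 11.2% of all genes tested passed and 8.18% were higher. In anti-S100a9 Ab against IgG Ab mice, 3 of 8 passed and all 3 were lower, beside 21.1% of all genes passing and 14.4% lower. No gene of the 8 passed in anti-S100a9 Ab against Control mice by limma's adjusted p. By unadjusted p under 0.05, 4 did (S100a8, S100a9, Tlr4 and Bsg), as did 16.0% of all genes, and of these 4 the 2 subunits were also more than 2-fold higher, as were 2.28% of all genes. All 3 IgG Ab samples were above all Control samples for 2 of the 8 genes, as for 20.7% of all genes. The anti-S100a9 Ab samples were all below the IgG Ab samples for 4 of the 8 (28.5% of all genes) and all above for Tlr4 (18.5%). Compared with Control, they were all above for 3 of the 8 (17.3%) and all below for Bsg (13.7%). With 8 genes, these shares are read only beside the background of many moving genes.

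Values were used without further scaling. The median log2 difference of all genes was 0.09 for IgG Ab against Control mice and -0.06 for anti-S100a9 Ab against IgG Ab mice, and became -0.02 and 0.06 with median-of-ratios scaling. Among genes that passed, 73.1% were higher in IgG Ab than in Control mice (60.0% with quantile normalization, 64.0% with median-of-ratios scaling), and 31.9% were higher in anti-S100a9 Ab than in IgG Ab mice (44.9% and 46.9%). The differences of S100a8 and S100a9 were far outside these shifts, whereas those of Ly96 and Myd88 were close to them in size.

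In order of abundance, Control colons had Bsg, Cd14, Myd88, Ly96 and Tlr4, each above the next in every sample, and then Ager, S100a8 and S100a9, whose samples overlapped. In IgG Ab colons, S100a9 and S100a8 stood by mean FPKM behind Bsg and Cd14 and ahead of Myd88, and both overlapped with each other and with Cd14. In anti-S100a9 Ab colons, they came after Myd88 by mean FPKM and overlapped with each other and with Ly96. The ratio of S100a9 to Tlr4 in FPKM was 0.102 to 0.341 in Control, 21.5 to 133 in IgG Ab and 0.990 to 2.52 in anti-S100a9 Ab samples.

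Around these genes, 58 others were listed by role, of which 57 were in the files and 56 were tested. In IgG Ab against Control mice 6 were higher and 2 lower, beside 8.18% and 3.01% of all genes. In anti-S100a9 Ab against IgG Ab mice 3 were higher and 9 lower, beside 6.72% and 14.4% of all genes. In either direction, 14.3% and 21.4% of the 56 passed in these comparisons, beside 11.2% and 21.1% of all genes. None passed limma's adjusted p in anti-S100a9 Ab against Control mice. There, 16 of 56 had an unadjusted p under 0.05, a larger share than the 16.0% of all genes (2439 of 15278). The median log2 difference of the 56 was 0.17, 0.05 and 0.14 in the 3 comparisons, beside 0.09, -0.06 and 0.04 for all genes. Several of these calls rested on single libraries. The 8 calls of the first comparison became 4 without Control replicate 2 and 5 without IgG Ab replicate 1 or any anti-S100a9 Ab replicate. The 12 of the second became 6 without IgG Ab replicate 1, 4 without IgG Ab replicate 3, and 3, 1 and 2 without anti-S100a9 Ab replicates 1, 2 and 3. In both comparisons, Slc16a3 was the gene of these lists that passed under all 18 alternatives, and Lbp and Tlr2 did so in the first.

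Within Toll-like receptor 4 signaling, 4 of 37 genes (10.8%) passed in IgG Ab against Control mice and 6 (16.2%) in anti-S100a9 Ab against IgG Ab mice, no more than the 11.2% and 21.1% of all genes. Those that moved in both comparisons included receptors and accessory proteins other than the Tlr4 complex itself. Lbp, which carries lipopolysaccharide to CD14, was at 1.21 to 1.54 FPKM in Control, 4.97 to 16.2 in IgG Ab and 2.08 to 3.68 in anti-S100a9 Ab samples. It rose by 2.75 on the log2 scale (SE 0.42, adjusted p = 0.0057) and was lower by -1.71 in anti-S100a9 Ab mice (SE 0.42, adjusted p = 0.025). Tlr2, the receptor of bacterial lipoproteins, was at 4.79 to 6.04, 13.8 to 23.0 and 6.29 to 8.79 FPKM in the same order, with log2 differences of 1.66 (SE 0.22, adjusted p = 0.0033) and -1.15 (SE 0.22, adjusted p = 0.014). The groups did not overlap for either gene. The second call was lost without IgG Ab replicate 3 (adjusted p = 0.071) or anti-S100a9 Ab replicate 1, 2 or 3 (0.067, 0.067 and 0.077) for Lbp, and without anti-S100a9 Ab replicate 2 (0.051) for Tlr2.

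Tlr1, which pairs with Tlr2, moved the other way, with 24.3 to 27.2 FPKM in Control, 9.87 to 20.3 in IgG Ab and 20.4 to 27.4 in anti-S100a9 Ab samples. Its log2 differences were -0.92 (adjusted p = 0.046) and 0.83 (adjusted p = 0.045), and each held in 6 of 18 alternatives, with the largest adjusted p at 0.13. Rela, the p65 subunit of NF-kB, differed by 0.61 (adjusted p = 0.043) and -0.65 (adjusted p = 0.026), and these calls held in 7 and 13 of 18 alternatives. The kinase adaptor Tab1 (-0.67, adjusted p = 0.042) and the NF-kB inhibitor Nfkbib (-0.58, adjusted p = 0.024) were lower in anti-S100a9 Ab than in IgG Ab mice, in 9 and 14 of 18 alternatives. The other 16 of 17 adaptors and kinases did not pass there, and none of the 17 passed in IgG Ab against Control mice, where 2 had an unadjusted p under 0.05, beside 29.5% of all genes.

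All 4 listed partners of basigin, a pair of transporters and a pair of cyclophilins, passed in anti-S100a9 Ab against IgG Ab mice, where 21.1% of all genes passed. Both transporters passed in IgG Ab against Control mice, where 11.2% of all genes passed. Slc16a3 encodes MCT4, a lactate exporter, and Slc16a1 encodes MCT1, which takes up lactate and, in colon epithelium, butyrate. Slc16a3 was at 1.95, 2.09 and 1.49 FPKM in Control, 18.9, 20.7 and 15.2 FPKM in IgG Ab, and 3.14, 3.31 and 3.89 FPKM in anti-S100a9 Ab samples. Slc16a1 was at 44.1, 58.9 and 52.7 FPKM in Control, 10.6, 26.2 and 19.5 FPKM in IgG Ab, and 38.6, 53.8 and 47.8 FPKM in anti-S100a9 Ab samples. The IgG Ab samples were thus apart from both other groups for both transporters, above them for Slc16a3 and below them for Slc16a1.

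Slc16a3 rose by 3.24 on the log2 scale in IgG Ab mice (SE 0.20, adjusted p = 0.00025) and was lower by -2.37 in anti-S100a9 Ab mice (SE 0.20, adjusted p = 0.0010). Slc16a1 differed by -1.54 (SE 0.30, adjusted p = 0.015) and 1.39 (SE 0.30, adjusted p = 0.019). The Slc16a1 calls were lost without Control replicate 2 (-1.45, adjusted p = 0.063) or with only the compared groups fitted (-1.54, adjusted p = 0.051) in the first comparison, and without anti-S100a9 Ab replicate 2 (1.28, adjusted p = 0.070) or 3 (1.37, adjusted p = 0.057) in the second. Ppib, a cyclophilin that binds basigin, was at 265 to 437 FPKM in Control, 414 to 477 in IgG Ab and 223 to 245 in anti-S100a9 Ab samples, a log2 difference of -0.94 between the AOM/DSS groups (adjusted p = 0.021). That call held in 14 of 18 alternatives and was lost without IgG Ab replicate 3 or any anti-S100a9 Ab replicate (adjusted p from 0.056 to 0.073). Ppia also passed there (-1.21, adjusted p = 0.045, in 8 of 17 alternatives), but it was listed at no more than 0.974 FPKM although nearly all cells express it highly, and it has many near-identical copies, so its values are uncertain.

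Among the ligands and partners of RAGE, the ligand genes Hmgb1, Hmgb2 and S100b did not pass. S100b, a glial S100 gene, was at 0.789 to 1.69 FPKM in Control, 0.254 to 0.776 in IgG Ab and 0.993 to 1.70 in anti-S100a9 Ab samples (log2 difference 1.27 between the AOM/DSS groups, adjusted p = 0.057). Without IgG Ab replicate 2, it passed in both comparisons (-1.54, adjusted p = 0.048, and 1.56, adjusted p = 0.035). Diaph1, which binds the cytoplasmic tail of RAGE, was higher in anti-S100a9 Ab than in IgG Ab mice by 0.43 (adjusted p = 0.030). Adam10, a protease that sheds RAGE, was higher in IgG Ab than in Control mice by 0.83 (adjusted p = 0.038). These calls held in 11 and 8 of 18 alternatives.

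None of 6 other reported binding partners of S100a8 or S100a9 passed limma's adjusted p in either comparison with IgG Ab mice, where 3 and 2 had an unadjusted p under 0.05, beside 29.5% and 39.1% of all genes. Cd33, a sialic acid-binding receptor of myeloid cells, came nearest, at 0.960 to 1.94 FPKM in Control, 1.73 to 2.49 in IgG Ab and 3.63 to 4.58 in anti-S100a9 Ab samples (log2 difference 0.88 between the AOM/DSS groups, adjusted p = 0.052). It passed without Control replicate 1 or 3 (adjusted p = 0.040 and 0.029) and under 6 further alternatives, among them both scalings (adjusted p = 0.042 each). Cd33 and S100a9 were at their highest in different groups. Cd69, a lectin-like receptor of activated leukocytes, passed without IgG Ab replicate 2, at -1.95 for IgG Ab against Control mice (adjusted p = 0.017) and at 1.84 between the AOM/DSS groups (adjusted p = 0.018), against -1.35 and 1.24 with all samples (adjusted p = 0.13 and 0.11).

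Of 6 transcription factors tied to expression of S100a8 and S100a9, 4 were tested. Cebpb, a C/EBP factor of myeloid cells and of inflamed epithelium, was at 11.4, 12.8 and 35.2 FPKM in Control, 30.4, 36.1 and 64.6 FPKM in IgG Ab, and 12.9, 10.6 and 13.5 FPKM in anti-S100a9 Ab samples. It was lower in anti-S100a9 Ab than in IgG Ab mice by -1.74 (SE 0.43, adjusted p = 0.026), a call lost without IgG Ab replicate 3 or anti-S100a9 Ab replicate 1, 2 or 3 (adjusted p from 0.063 to 0.088). Control replicate 3 was within the IgG Ab range, and IgG Ab against Control mice gave 1.25 (adjusted p = 0.091), or 1.77 (adjusted p = 0.019) without that sample. Stat3, a factor downstream of interleukin 6, rose by 0.72 in IgG Ab mice (SE 0.12, adjusted p = 0.0096, or 0.051 with only the compared groups fitted), while its difference of -0.25 between the AOM/DSS groups did not pass (adjusted p = 0.16). Cebpa and Spi1 (PU.1) did not pass in any comparison.

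**Figure D4:**
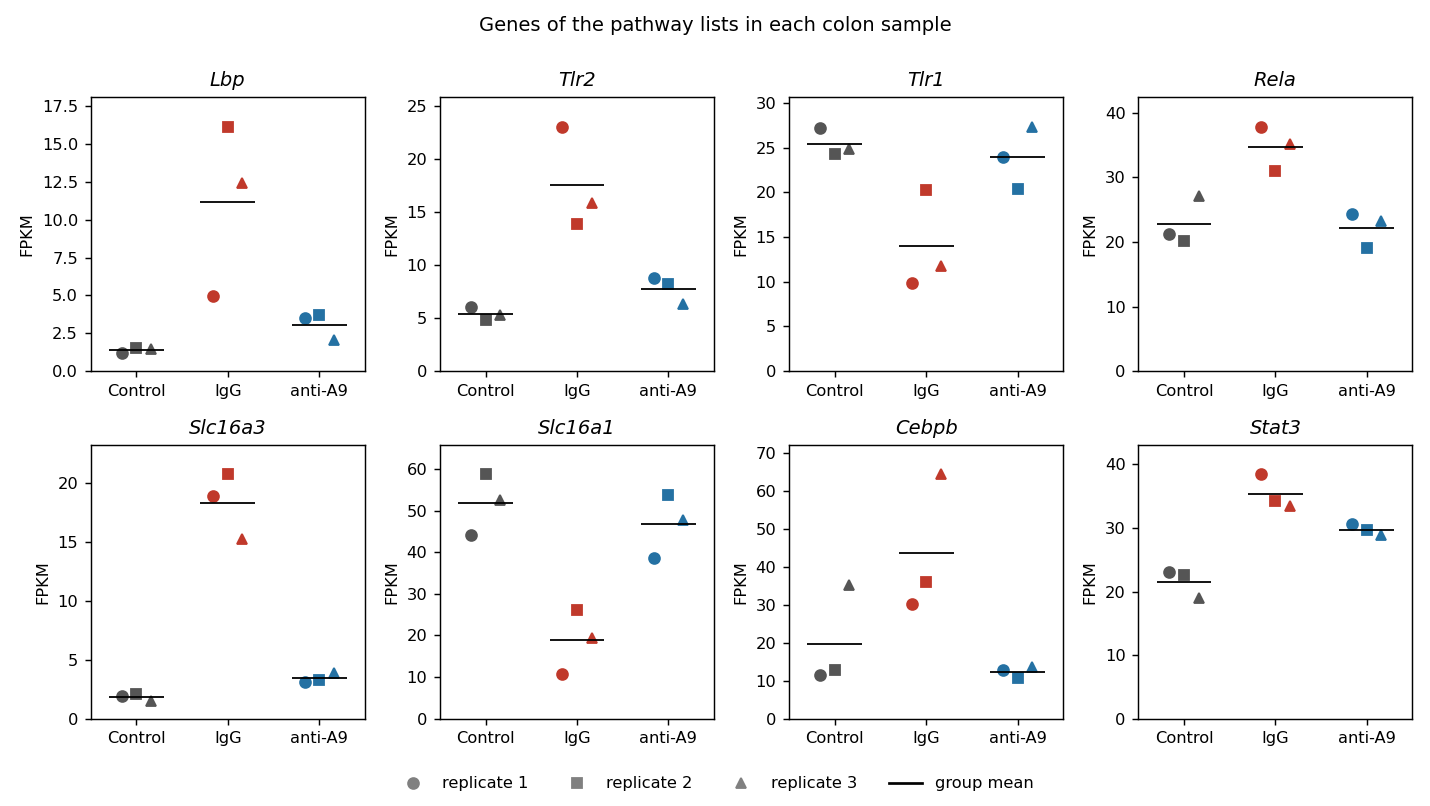
FPKM of 8 genes of the pathway lists in each of the 9 samples (points, with the replicate number as symbol) and the group mean (line), on linear axes from 0. Slc16a3 and Slc16a1 set the IgG Ab samples apart in opposite directions, and Control replicate 3 of Cebpb, at 35.2 FPKM, lies within the IgG Ab range of 30.4 to 64.6 FPKM.

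The genes whose pattern was most like that of the subunits were sought among 13085 genes with a mean of at least 1 FPKM in a group, by the root-mean-square difference of mean-centred log2 values over the 9 samples. S100a8 and S100a9 were each other's nearest gene, at 0.387 log2 units. For S100a9, Cxcl5 (a chemokine that attracts neutrophils, 0.913), Prss22 (a serine protease, 1.05), Apoc4 (an apolipoprotein, 1.05) and Lcn2 (a siderophore-binding protein of neutrophils and epithelium, 1.20) followed. For S100a8, the same 4 genes followed, at 1.13 to 1.24. Cxcl5, the nearest, was at 0.070 to 0.408 FPKM in Control, 30.8 to 66.7 in IgG Ab and 1.97 to 4.95 in anti-S100a9 Ab samples. Lcn2 was at 0.933 to 2.29, 77.7 to 176 and 2.53 to 4.30 FPKM in the same order. The likeness is a description over samples that share the group differences.

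Because neutrophils are a main source of both subunits, markers of other cells are given beside them. Of 11 neutrophil markers, Csf3r, Cxcr2, Ltf, Retnlg and Mmp8 rose in IgG Ab mice, and Cxcr2, Ltf, Retnlg, Mmp8 and Fpr1 fell in anti-S100a9 Ab compared with IgG Ab mice. The calls in IgG Ab against Control mice held in 18 of 18 alternatives for Csf3r and Cxcr2, 16 of 17 for Ltf, 15 of 18 for Retnlg and 12 of 17 for Mmp8. Those between the AOM/DSS groups held in 14 of 18 for Retnlg, 14 of 17 for Ltf, 8 of 17 for Mmp8, 7 of 18 for Cxcr2 and 4 of 18 for Fpr1. Of the neutrophil markers 10 of 11, and of the keratinocyte markers below 6 of 11, passed the filter on low values, some through the IgG Ab samples, so nothing is read from how many of them moved. Retnlg, a granulocyte resistin-like protein, was at 0.094 to 1.86 FPKM in Control, 5.38, 34.0 and 75.6 in IgG Ab replicates 1, 2 and 3, and 0.816 to 1.21 in anti-S100a9 Ab samples. IgG Ab replicate 1 was thus the lowest of its group for Retnlg, as it was for S100a8 and S100a9, whereas for Ltf, the granule protein lactoferrin, it was the highest, at 3.84 FPKM against 1.75 and 0.704 in IgG Ab replicates 2 and 3. The summed level of the 11 markers ranged from 92.4 to 121 FPKM in Control, 40.5 to 192 in IgG Ab and 86.9 to 158 in anti-S100a9 Ab samples. Ly6g made up most of it (26.1 to 150.2 FPKM over all samples) and did not pass in any comparison, and without Ly6g the sums were 3.28 to 3.83, 14.4 to 96.4 and 3.25 to 7.51 FPKM. Of granule genes of immature neutrophils, Elane was listed at 0 in 7 of 9 samples and Mpo was at no more than 0.159 FPKM. Other granule genes on the list reached higher values. Ngp was listed at 0 in Control, at 0.113, 4.47 and 5.33 FPKM in IgG Ab replicates 1 to 3 and at 0.122 to 0.922 FPKM in anti-S100a9 Ab samples. It did not pass in IgG Ab against Control mice (log2 difference 4.12, adjusted p = 0.051). Camp was at 0.075, 2.42 and 0.147 FPKM in IgG Ab replicates 1 to 3 and did not pass either.

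None of 11 monocyte and macrophage markers passed limma's adjusted p in any comparison. In each, 1 had an unadjusted p under 0.05, beside 29.5%, 39.1% and 16.0% of all genes. Their sums were 589 to 1436, 605 to 1095 and 1024 to 1316 FPKM in Control, IgG Ab and anti-S100a9 Ab samples, and Lyz2 (262 to 881 FPKM) was the largest part of each. All anti-S100a9 Ab samples were above all IgG Ab samples for 3 of the 11 (Adgre1, Lyz2 and Mrc1), as for 18.5% of all genes. Squamous keratinocyte markers, another source of calprotectin where anal skin or stressed epithelium is sampled, summed to 1.02 to 2.10 FPKM in Control, 8.65 to 51.1 in IgG Ab and 1.60 to 3.71 in anti-S100a9 Ab samples, and Sprr3 was listed at 0 throughout. Krt14 made up most of the IgG Ab sums, at 37.1, 4.63 and 18.6 FPKM in replicates 1 to 3. In IgG Ab against Control mice, Krt14, Krt13, Krt4, Dsg3 and Krt6a rose by 3.66, 3.54, 3.39, 3.20 and 2.58 on the log2 scale (adjusted p from 0.0064 to 0.016). Between the AOM/DSS groups they differed by -3.30, -2.42, -3.40, -2.91 and -2.09 (adjusted p from 0.0099 to 0.042). There, the call held in 14 of 14 alternatives for Dsg3 and in 10 of 18 for Krt13. Krt5 reached at most 0.468 FPKM and did not pass in any comparison, and Trp63, Sprr1b and Ivl reached at most 0.022, 0.058 and 0.177 FPKM. IgG Ab replicate 1 had the highest of these sums, but the order varied by marker. Within the IgG Ab group, Krt14, Krt4 and Dsg3 were highest in replicate 1 and Krt6b, Sprr1b and Trp63 in replicate 2. Krt13, Krt6a, Krt5 and Ivl were highest in replicate 3. S100a8 and S100a9 were lowest in replicate 1 and highest in replicate 3. The sums of the 8 colon epithelium markers were 2643 to 3256, 1799 to 2588 and 2253 to 2922 FPKM. Among them, Slc26a3 was at 85.1 to 200, 2.79 to 29.9 and 118 to 233 FPKM. In IgG Ab against Control and anti-S100a9 Ab against IgG Ab mice, it differed by -4.03 and 4.12 on the log2 scale (adjusted p = 0.012 each). Car1 differed by -2.65 and 2.66 (adjusted p = 0.033 and 0.024, in 12 and 14 of 18 alternatives). The other 6 did not pass there, beside 11.2% and 21.1% of all genes passing. The part of these cell types in the differences of S100a8 and S100a9 was not tested.

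**Figure D5:**
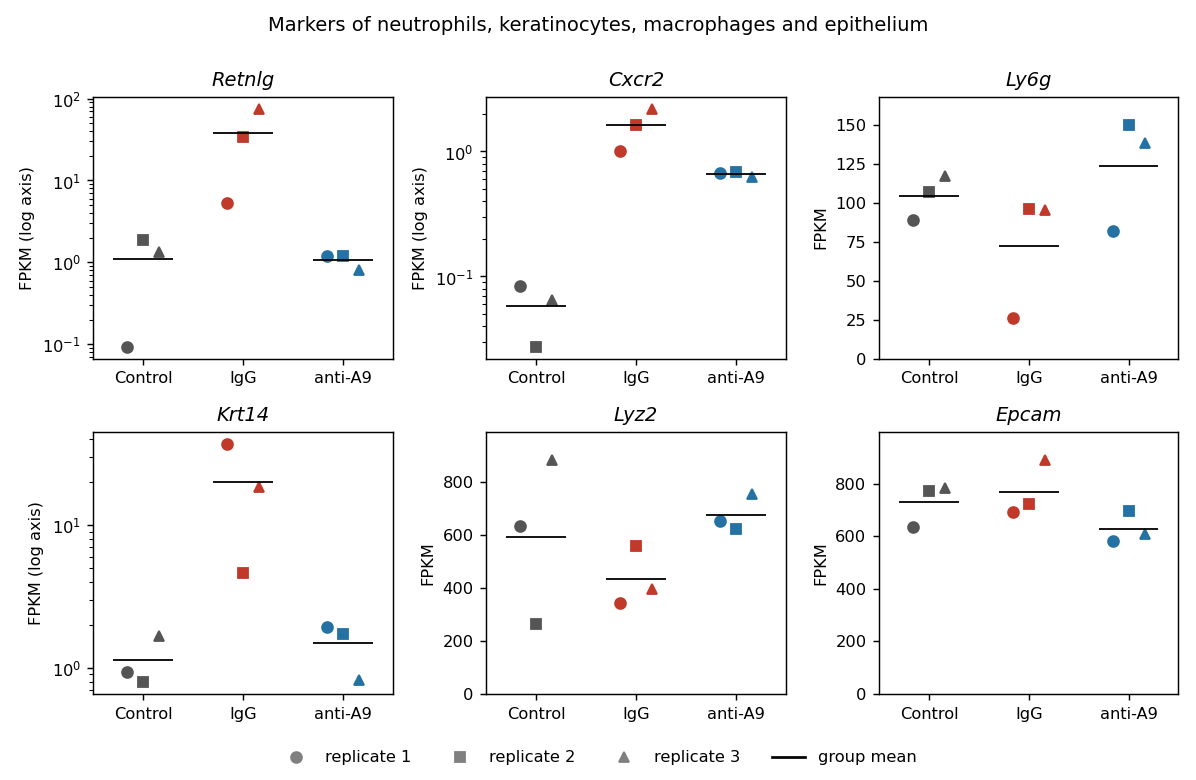
FPKM of markers of neutrophils (Retnlg, Cxcr2, Ly6g), keratinocytes (Krt14), macrophages (Lyz2) and epithelium (Epcam) in each of the 9 samples (points, with the replicate number as symbol) and the group mean (line). Axes are logarithmic for Retnlg, Cxcr2 and Krt14 and linear from 0 for the rest. Retnlg, Cxcr2 and Krt14 are highest in the IgG Ab samples, while Ly6g, at 26.1 to 150.2 FPKM, overlaps among all groups.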

How the data were processed

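The authors deposited 1 table per sample, with decimal FPKM values, fragments scaled by transcript length and library size, in 21544 rows. No source names the unit, which was inferred from the values. The submitters' processing notes name TopHat, Cufflinks, HTSeq, DESeq and GRCm38 without their roles. Repeated symbols (46 rows) were summed. FPKM are no counts, so DESeq was not used here. The 15278 genes reaching 0.1 FPKM in 3 or more samples were tested on log2(FPKM + 0.1) with limma 3.58.1 (R 4.3.3, all 9 samples, intensity trend, 8.87 degrees of freedom), and p-values were adjusted by Benjamini-Hochberg over all genes. A gene passed at an adjusted p under 0.05. The scale understates the change of low genes. Depth was estimated from 43 to 60 low FPKM values per sample, of genes with 1 transcript of at least 2000 bases. Estimates outside a preset window were discarded, so the window bounded the depths and the fragment counts derived from them. FPKM gives no counting error, so precision rests on 3 mice per group.

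The 8 genes and all lists were chosen with earlier results of these data known. From each list, genes that passed in a comparison with IgG Ab mice were named, at most 4 per role, with at most 2 others, and the genes nearest in pattern, 5 for each subunit and 2 for each other gene. Alternatives changed the pseudocount (0.01, 1), the filter (1 FPKM, or none), the scaling, the trend, the samples fitted, the replicate block and the threshold, and left out each sample. Positions are from GENCODE M21. The deviations of same-numbered samples correlated by -0.187 to 0.249, over 0.1 in 5 of 9 pairs but for all 3 numbers in none of the comparisons, so the numbers were not taken to pair mice. Python 3.11.15, pandas 2.3.3, numpy 2.4.6, scipy 1.17.1 and matplotlib 3.10.9 were used.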

Additional observations from a re-analysis of the deposited data

How the results depend on the processing

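In 18 alternatives, S100a8 and S100a9 kept their direction and their side of the threshold, except S100a9 in anti-S100a9 Ab against Control mice without IgG Ab replicate 1. The number of the 8 genes passing in that comparison was 0 to 1 when samples were left out and 2 by unadjusted p under 0.05 with more than 2-fold change, by which 2 of the pathway genes also passed. The pathway genes passing in IgG Ab against Control mice numbered 5 without an intensity trend and 3 with only both groups compared in the fit, and 4 to 10 when single samples were left out. In anti-S100a9 Ab against IgG Ab mice they numbered 1 to 15 when single samples were left out. Small differences of genes that did not pass changed sign. With quantile normalization, Ly96 gave 0.043 and Myd88 0.012 between the AOM/DSS groups, and Myd88 gave -0.0096 for IgG Ab and 0.0026 for anti-S100a9 Ab against Control. With median-of-ratios scaling, Ly96 gave 0.10 between the AOM/DSS groups and Myd88 -0.011 for IgG Ab against Control. The cause was not tested. Leaving out single samples gave, for IgG Ab against Control, -0.35 to 0.21 for Tlr4, -0.10 to 0.39 for Cd14 and -0.045 to 0.32 for Myd88. It gave, between the AOM/DSS groups, -0.10 to 0.028 for Ly96, -0.35 to 0.0075 for Myd88 and -0.23 to 0.35 for the log2 ratio of S100a9 to S100a8, and, for anti-S100a9 Ab against Control, -0.54 to 0.048 for Ager and -0.16 to 0.077 for Myd88. With the replicate number as a block, 2, 3 and 0 of the 8 genes passed in the 3 comparisons. The block changed no call of these genes, while Tlr1 lost both of its calls (adjusted p = 0.069 and 0.065) and Cebpb gained a call in IgG Ab against Control mice (adjusted p = 0.036). In Control samples, the few fragments behind S100a8 and S100a9, about 3.4 to 10.8 by the rough depth estimate, limit their fold changes.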

Other observations

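The genes nearest in pattern to the receptors and their partners, over the 9 samples and 13085 genes, were of other kinds than those nearest to the ligand genes. Tlr4 was closest to Usp25, a deubiquitinase (root-mean-square difference 0.086 log2 units), and Elf1, an ETS transcription factor (0.102). Usp25 was at 7.03 to 13.1 FPKM in Control, 7.87 to 12.5 in IgG Ab and 17.2 to 20.6 in anti-S100a9 Ab samples, so its anti-S100a9 Ab samples were also above all others. Bsg was closest to Mrpl40 (0.064) and Mrpl11 (0.071), both proteins of the mitochondrial ribosome, and Mrpl40 was at 16.7 to 24.8, 22.6 to 25.3 and 13.1 to 16.5 FPKM in the same order. Ager was closest to Ggt7 (0.154) and Srsf9 (0.175), Cd14 to Trpt1 (0.090) and Mrps28 (0.099), Ly96 to Txndc11 (0.116) and S1pr2 (0.123), and Myd88 to Mtfr2 (0.118) and Serpinh1 (0.125). A small distance is easily reached by genes that vary little, so these neighbors describe shape and size of variation only.

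Ly6g, widely used to mark neutrophils, did not pass in any comparison. It was at 88.8, 107 and 117 FPKM in Control, 26.1, 96.0 and 95.2 FPKM in IgG Ab, and 82.1, 150.2 and 138 FPKM in anti-S100a9 Ab replicates 1 to 3, whereas Cxcr2 was at 0.027 to 0.083 FPKM in Control and 1.00 to 2.20 in IgG Ab samples. Ly6g belongs to a family of similar neighboring genes, and how the authors' processing assigned reads among them is not given in the sources used here.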
